A study of Sus scrofa with 18 samples.

Results

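Haptoglobin (HP), SERPINA3-2, SERPINA1, alpha-2-macroglobulin (A2M) and ITIH4 are plasma proteins of the acute phase response or inhibitors of proteases, and their RNA was followed here in pig endometrium across 3 days of gestation in 2 breeds. The members are all probe sets whose platform gene symbol is one of these 5 names, which gave 7 of the 24123 probe sets of the array, with 3 for A2M and 1 for each other gene. They are 5 of the 6765 genes with a probe set of 1 symbol. The genes were selected on their levels and day changes in these arrays, so the day changes below are a description and carry no p-value. The arrays were Affymetrix porcine GeneChips, 18 in all, hybridized with endometrial RNA of pregnant Yorkshire and Meishan gilts, 3 arrays for each breed on gestational day 15 (GD15), GD26 and GD50. The gilts were of similar age and weight and were mated to boars of their own breed. Day 0 was that of first mating, and tissue was taken from the middle of each uterine horn. Each array held RNA of 1 conceptus attachment site, mixed in equal parts from 2 gilts, and the same 2 animals served all 3 arrays of a group, so the spread and every p-value below measure only differences between site pools, not between animals. All values are deposited log2 intensities, an intensity of 100 (6.64 on the log2 scale) is used as the limit below which a probe set is called dim, and levels of different probe sets are not set against each other.

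The acute phase response is the change in plasma proteins that the liver makes during infection, injury or tissue remodelling, under the control of cytokines such as interleukin 6. Haptoglobin binds free hemoglobin and hands it to the macrophage receptor CD163. SERPINA1 and the SERPINA3 proteins are serpins, which trap serine proteases such as neutrophil elastase and cathepsin G in human, whereas A2M cages proteases of all classes and ITIH4 is a heavy chain of the inter-alpha-trypsin inhibitor family and a strong acute phase protein of pigs. The pig placenta does not invade the uterus, and protease inhibitors, among them the uterine serpins and SLPI, are known products of its uterine epithelium during gestation.

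The filter for tests across the array asked for 6 or more of the 18 arrays to exceed 100. Of the 7 probe sets 3 met it, as did 9320 of the 23999 on the array that are not controls. HP passed it with 6 arrays, SERPINA3-2 with 14, and A2M with 18 for its brightest probe set. The arrays through which HP passed were all of GD50, 3 from each breed, so it was tested only because of its level on that day. SERPINA1 exceeded 100 on 4 arrays and the second A2M probe set on 5. ITIH4 and the third A2M probe set never did. The plot of the members on each array shows 4 different courses over gestation among the brighter probe sets.

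**Figure D1:**
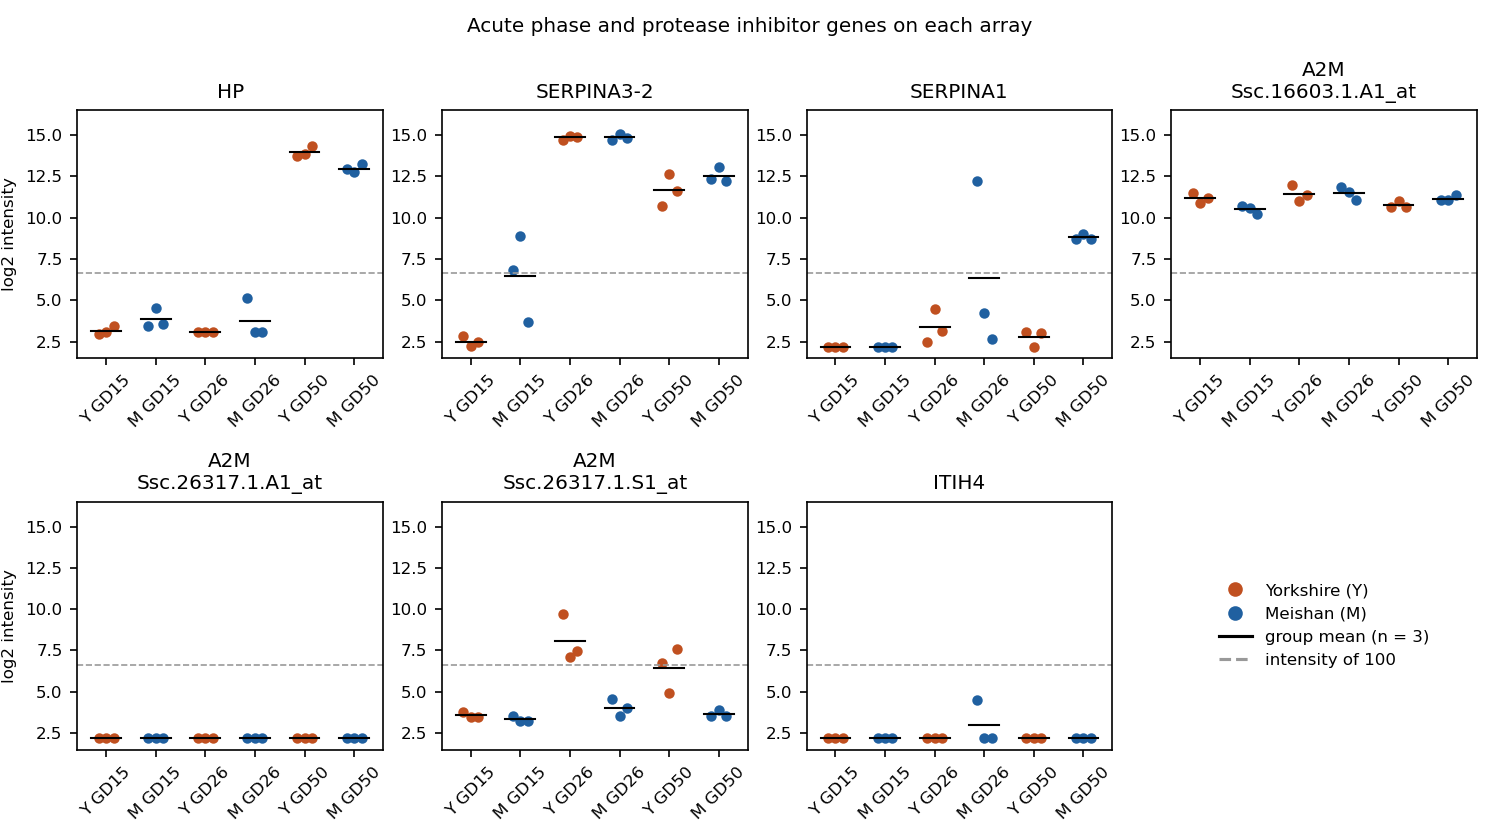
Log2 intensity of the 7 probe sets on each of the 18 arrays, by breed (Yorkshire and Meishan) and gestational day, with the mean of the 3 arrays of a group as a bar and an intensity of 100 as a dashed line. HP is bright on the 6 GD50 arrays alone, SERPINA3-2 is brightest on GD26, SERPINA1 exceeds 100 on 1 Meishan GD26 array and the 3 Meishan GD50 arrays, and the A2M probe sets differ from each other.

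HP was dim until GD26 and bright on GD50 in both breeds. On GD15, HP had log2 intensities of 2.97, 3.09 and 3.43 in Yorkshire gilts, against 3.43, 4.55 and 3.54 in Meishan gilts. On GD26 the values were 3.06, 3.06 and 3.09 in Yorkshire gilts, against 5.11, 3.06 and 3.10 in Meishan gilts. On GD50 they were 13.75, 13.87 and 14.31 in Yorkshire gilts, against 12.96, 12.74 and 13.23 in Meishan gilts. All 12 arrays of GD15 and GD26 thus lay under an intensity of 100, and all 6 arrays of GD50 were far above it, without overlap. HP was at least 161-fold higher on GD50 than on GD26 in Yorkshire gilts and at least 80.6-fold higher in Meishan gilts, with 100 in place of the dim group. The fitted log2 differences, which rest on dim values on one side, were 10.91 ± 0.17 in Yorkshire gilts and 9.22 ± 0.61 in Meishan gilts (SE, n = 3 per group).

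SERPINA3-2 was brightest on GD26. On GD15 its log2 intensities were 2.82, 2.21 and 2.49 in Yorkshire gilts, against 6.80, 8.89 and 3.72 in Meishan gilts. The Yorkshire arrays were all dim, and the Meishan arrays spread widely, with 2 of 3 above 100. On GD26 the values were 14.73, 14.96 and 14.91 in Yorkshire gilts, against 14.73, 15.08 and 14.84 in Meishan gilts, so that all 6 arrays stood within a narrow band near the top of the scale. On GD50 they were 10.72, 12.63 and 11.63 in Yorkshire gilts, against 12.36, 13.05 and 12.25 in Meishan gilts, below every GD26 array. SERPINA3-2 was at least 299-fold higher on GD26 than on GD15 in Yorkshire gilts, and in Meishan gilts the log2 difference was 8.42 ± 1.19, with no fold given because the GD15 mean was under 100 and only 2 of its 3 arrays exceeded it. From GD26 to GD50 the log2 difference was −3.21 ± 0.45 in Yorkshire gilts and −2.33 ± 1.19 in Meishan gilts, whose 95% confidence interval of −5.19 to 0.53 includes 0. In the RefSeq annotation SERPINA3-2 lies at one end of a serpin cluster, with 11 protein-coding genes between it and SERPINA1, among them SERPINA11, SERPINA5 and UABP-2, and whether its probe set also reads related genes was not tested.

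SERPINA1 exceeded 100 in Meishan gilts only. On GD15 its log2 intensities were 2.18, 2.19 and 2.18 in Yorkshire gilts, against 2.19, 2.18 and 2.18 in Meishan gilts, all at the floor of the array. On GD26 they were 2.49, 4.47 and 3.15 in Yorkshire gilts, against 12.19, 4.20 and 2.65 in Meishan gilts, where 1 array stood far above the other two. On GD50 they were 3.09, 2.19 and 3.04 in Yorkshire gilts, against 8.72, 9.03 and 8.74 in Meishan gilts. The 3 Meishan GD50 arrays were close to each other and at least 4.55-fold above the Meishan GD15 arrays.

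The 3 probe sets of A2M disagreed. The brightest was above 100 on all arrays and moved little, with 11.52, 10.86 and 11.18 in Yorkshire gilts on GD15, against 10.68, 10.61 and 10.20 in Meishan gilts. On GD26 it had 11.996, 11.00 and 11.38 in Yorkshire gilts, against 11.87, 11.56 and 11.09 in Meishan gilts. On GD50 it had 10.68, 11.01 and 10.64 in Yorkshire gilts, against 11.05, 11.05 and 11.35 in Meishan gilts. The log2 difference of GD26 over GD15 was 0.27 ± 0.29 in Yorkshire gilts, where the arrays overlap, and 1.01 ± 0.23 in Meishan gilts, where they do not. That of GD50 over GD26 was −0.68 ± 0.29 in Yorkshire gilts and −0.36 ± 0.23 in Meishan gilts, with overlap in both breeds.

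The second A2M probe set exceeded 100 in Yorkshire gilts only. It had 3.75, 3.50 and 3.50 in Yorkshire gilts on GD15, against 3.51, 3.25 and 3.24 in Meishan gilts. On GD26 it had 9.71, 7.13 and 7.44 in Yorkshire gilts, against 4.59, 3.51 and 3.99 in Meishan gilts, and on GD50 6.74, 4.92 and 7.58 in Yorkshire gilts, against 3.51, 3.89 and 3.51 in Meishan gilts. The Yorkshire arrays of GD26 were at least 2.73-fold above those of GD15, and all 9 Meishan arrays stayed dim. The third probe set stood at 2.18, the floor, on all 18 arrays, so it gave no signal to compare. It was designed from the same source sequence as the second, and the brightest from another. PZP, a close relative of A2M, is its neighbour in the genome, and which transcript each probe set reads was not tested.

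ITIH4 stood at 2.18 on all 9 Yorkshire arrays and on 7 of the 9 Meishan arrays, with 4.50 and 2.21 on the other two, which are Meishan GD26 replicates 1 and 3. At this signal no change of ITIH4 was detectable. In order of the mean level, HP ran from Yorkshire GD50 (13.98 ± 0.29, SD, n = 3) over Meishan GD50 (12.98 ± 0.25) to the 4 groups of GD15 and GD26, which overlap below 100. SERPINA3-2 ran from the GD26 groups, which overlap with means of 14.87 in Yorkshire and 14.88 in Meishan gilts, over Meishan GD50 (12.55), Yorkshire GD50 (11.66) and Meishan GD15 (6.47) to Yorkshire GD15 (2.50), and the GD50 arrays of the breeds overlap too.

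The difference between the breeds on each day was computed for these probe sets. The members were listed with the levels of all 6 groups known, and the breed differences use those same levels. The adjusted p-values of the members below therefore describe these arrays and are not separate evidence of a breed difference. The log2 differences are Yorkshire minus Meishan, from limma over the 6 groups with Benjamini-Hochberg adjustment over the 9320 probe sets. Of the 3 members tested, 1 differed on GD15, none on GD26 and none on GD50, where 10.5%, 53.5% and 57.2% of all tested probe sets did. The count at an unadjusted p under 0.05 was 2 on GD15, 0 on GD26 and 1 on GD50. The share of all probe sets at that unadjusted limit was not computed, so nothing is read from these counts. The plot of the breed differences gives each value with its interval.

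SERPINA3-2 was lower in Yorkshire gilts on GD15, by a log2 difference of −3.96 ± 0.91 (adjusted p = 0.0133). The group means were 2.50 in Yorkshire gilts and 6.47 in Meishan gilts, both under 100, so no fold is given. The call was lost with a floor of 100 on the intensity (−0.80, adjusted p = 0.451), in a fit of the GD15 arrays alone (adjusted p = 0.177) and without Yorkshire GD15 replicate 2 (−3.82, adjusted p = 0.0531). On GD26 the log2 difference of SERPINA3-2 was −0.02, with a 95% interval of −1.99 to 1.96, and 0.33 after median centring, and on GD50 it was −0.89 (adjusted p = 0.416). The change of SERPINA3-2 between GD15 and GD26 differed between the breeds by 3.95 ± 1.29 (adjusted p = 0.0308), with the Yorkshire change the larger, where 36.6% of all probe sets differed. This value rests on the dim Yorkshire GD15 arrays, and the call was lost with a floor of 100 (0.78, adjusted p = 0.458), with no filter (adjusted p = 0.0534) and without any 1 of 8 arrays (adjusted p from 0.0511 to 0.0624).

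For HP on GD50 the Yorkshire arrays lay above the Meishan arrays without overlap, with a log2 difference of 1.00 ± 0.45, a 2.00-fold one (95% interval 0.02 to 1.98, adjusted p = 0.0744), which did not pass the threshold. It passed in 6 of the 30 alternatives and failed in all others. Those 6 were the fit without Meishan GD26 replicate 1 (1.00 ± 0.26, adjusted p = 0.00669), a fit of the GD50 arrays alone (adjusted p = 0.0201), a floor of 100 (1.00, adjusted p = 6.9e-05), median centring (1.41, adjusted p = 0.0176), quantile normalization (1.12, adjusted p = 0.0418) and cyclic loess (1.61, adjusted p = 0.0142). The pig probe sets as a whole were dimmer on the 6 later Yorkshire arrays, with a median log2 difference over all tested probe sets of −0.42 on GD26 and −0.46 on GD50. Hybridization controls moved the other way, with mean log2 levels of 11.4 to 13.5 on those arrays against 9.68 to 11.1 on the other 12. The HP difference ran against the shift of the pig probe sets, and the part of these array differences in it was tested only through the scaling alternatives. The difference of the change from GD26 to GD50 was 1.69 ± 0.64 (adjusted p = 0.151), where 4.74% of all probe sets differed.

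SERPINA1 was too dim for the filter. A looser filter would keep it only through the Meishan arrays on which it is bright, so its adjusted p is given over all 23999 probe sets with no filter. It was lower in Yorkshire gilts on GD50, at least 4.55-fold, with a fitted log2 difference of −6.06 ± 1.69 (adjusted p = 0.0161), where 30.3% of all probe sets differed. Without Meishan GD26 replicate 1, which widens the spread of SERPINA1, the value was −6.06 ± 0.46. On GD26 the log2 difference was −2.98 (adjusted p = 0.234), and without that array −0.05, so the GD26 value rests on 1 array.

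The brightest A2M probe set differed, without passing the threshold, between the breeds by 0.69 on GD15 (adjusted p = 0.123), −0.05 on GD26 (adjusted p = 0.889) and −0.37 on GD50 (adjusted p = 0.235), and after median centring the values on GD26 and GD50 were 0.30 and 0.04. Its change between GD15 and GD50 differed by −1.06 ± 0.37 (adjusted p = 0.0363), where 39.8% of all probe sets differed, and this call was lost after median centring (−0.65, adjusted p = 0.189) and cyclic loess (−0.89, adjusted p = 0.0811). It was also lost when any 1 of 8 arrays was left out, namely Meishan GD15 replicate 3, each Meishan GD50 array, Yorkshire GD15 replicates 1 and 3 and Yorkshire GD50 replicates 1 and 3, with adjusted p from 0.0521 to 0.0888. The second A2M probe set exceeded 100 on Yorkshire arrays alone, and its adjusted p is likewise given with no filter. It was higher in Yorkshire gilts by 4.06 ± 0.66 on GD26 (at least 2.73-fold, adjusted p = 5.59e-04), where 27.7% of all probe sets differed, and by 2.78 ± 0.66 on GD50 (adjusted p = 0.0064). Its change between GD15 and GD26 differed between the breeds by 3.81 ± 0.94 (adjusted p = 0.0136), where 16.9% did, and that between GD15 and GD50 by 2.53 ± 0.94 (adjusted p = 0.0806). These log2 values rest on dim Meishan arrays.

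**Figure D2:**
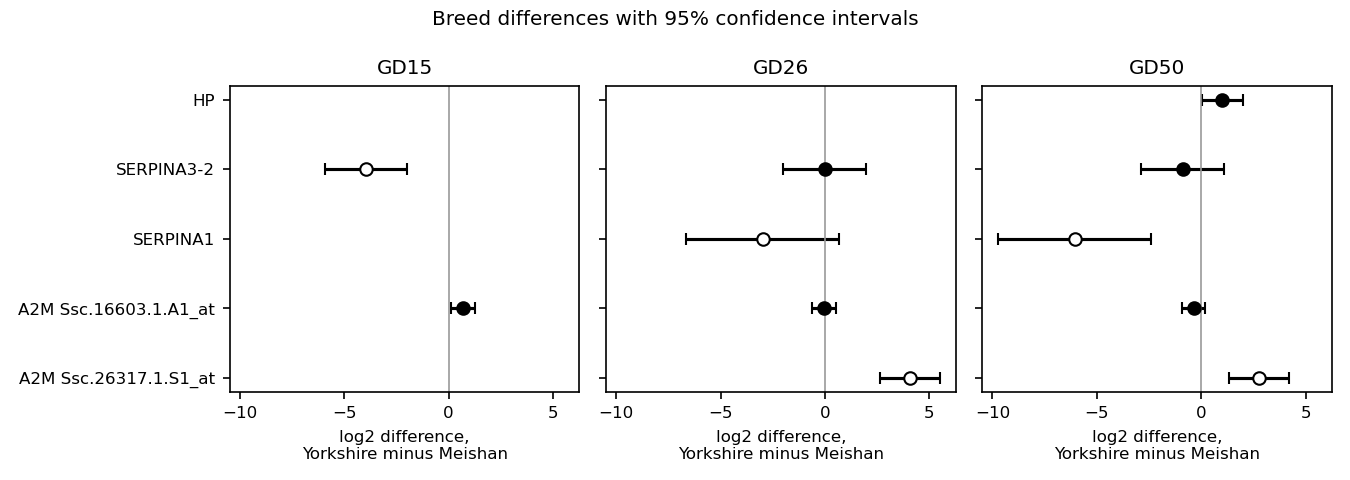
Log2 difference between the breeds, Yorkshire minus Meishan, on GD15, GD26 and GD50, with 95% confidence intervals from limma over the 6 groups. Filled circles have at least 1 array above 100 in both groups and open circles have 1 group wholly under 100; contrasts with both groups under 100 are left out. The interval of SERPINA3-2 spans 0 on GD26 and lies below 0 on GD15.

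Other cell types and 1 array moved with these results. Of 7 trophoblast markers, 1 exceeded 100 on each GD15 array and 6 or 7 on each GD26 and GD50 array, and their summed intensity was 40633 to 89458 on GD26 and GD50 arrays, against 298 to 433 on GD15 arrays. PLET1, a trophoblast gene, was at least 14.37 on every later array and at most 2.32 on GD15. The higher level of SERPINA3-2 from GD26 thus coincided with trophoblast RNA in the samples, and HP was still dim on GD26, when the trophoblast markers were already bright. In such bulk samples a higher share of a cell type and more RNA per cell cannot be told apart, and the part of trophoblast RNA in the result was not tested. The epithelial markers were above 100 throughout (6 or 7 of 7). Of 4 endometrial markers, 2 exceeded 100 on each GD15 array and 1 on each GD26 and GD50 array. Their mean log2 level was 7.91 to 8.41 on GD15 and 6.48 to 7.06 on the later days. The uteroferrin gene ACP5 was bright on all arrays, and the hormone receptors ESR1 and PGR, each read by 1 probe set, were under 100 on all of them. The remaining marker thus exceeded 100 on GD15 alone, and the part of this drop in the member results was not tested.

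Markers of blood, immune, stromal and liver cells were checked for the same reason. The neutrophil markers ELANE and LTF stayed dim on all arrays, with 0 to 2 of 5 neutrophil markers above 100 on an array. The summed intensity of the 5 was nevertheless 5791 to 11577 on the Yorkshire GD15 arrays, against 317 to 864 on the Meishan GD15 arrays, which was mostly S100A9 (12.49 to 13.50 in Yorkshire gilts, against 8.22 to 9.72 in Meishan gilts). This is the group in which SERPINA3-2 was low, and the part of neutrophil RNA in its breed difference was not tested. On GD50 the 5 markers summed to 803 to 1559 in Yorkshire gilts, against 308 to 394 in Meishan gilts. Their mean log2 level on that day was 4.70 to 5.57 in Yorkshire gilts, against 3.49 to 3.67 in Meishan gilts. HP was bright on GD50, and the part of neutrophil RNA in its level and breed difference was not tested. Macrophage markers summed to 1184 to 3425 on GD26 and GD50, against 376 to 1440 on GD15. Of 3 blood markers 0 to 2 exceeded 100 on an array, with a mean log2 level of 6.40 to 6.66 on the Yorkshire GD26 arrays, where SERPINA3-2 was bright, and of 5.02 to 6.35 on the other 15. Of 5 stromal markers 4 exceeded 100 on the later Yorkshire arrays and 3 on the other 12. The part of these cells in the member results was not tested. Of 9 hepatocyte markers, 1 or 2 exceeded 100 on 17 arrays, and albumin stood at 2.44 or less on all 18.

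The single bright SERPINA1 value on GD26 stood with other genes of plasma proteins. On Meishan GD26 replicate 1, 14 probe sets exceeded 100 and lay above both other arrays of the group by over 3 on the log2 scale, against 0 to 5 on each of the other 17 arrays. The genes named next were chosen after their values were seen. With SERPINA1 at 12.19 there, AHSG (fetuin) had 11.93, ORM1 (an acute phase glycoprotein) 11.56, AFP (alpha-fetoprotein) 11.42, TF (transferrin) 11.18 and TTR (transthyretin) 8.41. On the other 17 arrays the same probe sets reached at most 6.36 for AHSG, 3.15 for ORM1, 2.54 for AFP, 3.00 for TF and 6.87 for TTR. HP (5.11) and ITIH4 (4.50) also had their highest value outside the GD50 arrays, or of all arrays, on that array, both under 100. EIF1AY, which the RefSeq annotation places on the Y chromosome, had 7.41 there and at most 3.72 elsewhere, in samples of female animals.

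Of the hepatocyte markers, 4 of 9 exceeded 100 on Meishan GD26 replicate 1, and their summed intensity was 7688, against 1371 to 4446 on the other 17 arrays, but albumin, the defining one, was at the floor. The list holds AHSG and TTR, picked above for their values on this array, so the count and the sum are not separate evidence. It also holds APOA2, which was bright on all 3 Meishan GD26 arrays. The Meishan GD50 arrays, where SERPINA1 was 8.72 to 9.03, had the same probe sets of AFP, ORM1, TF and TTR under 100 on all 3. Other probe sets of ORM1 and TF did not share the pattern, since 2 of ORM1 stayed under 4.42 on all arrays and 1 of TF exceeded 100 on 17 of them. That TF probe set was 8.88 to 9.09 on the Meishan GD50 arrays. The source of this RNA was not tested. The plot of SERPINA1 with these genes shows the array beside the other 17.

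**Figure D3:**
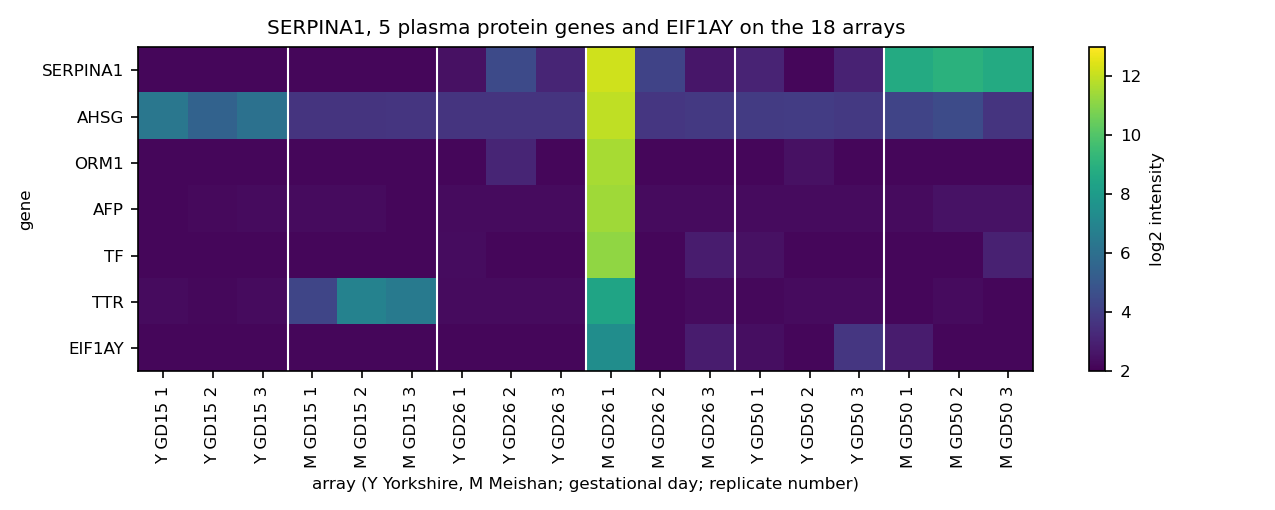
Log2 intensity, as colour, of SERPINA1, the plasma protein genes AHSG, ORM1, AFP, TF and TTR and the Y-linked gene EIF1AY (rows) on the 18 arrays (columns, labelled by breed, day and replicate number), for the probe set of each gene that stood out on Meishan GD26 replicate 1. That array is bright in every row, and the Meishan GD50 arrays are bright in the SERPINA1 row alone.

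The genes whose values over the 18 arrays were most like each member are given as a description, since the arrays fall into 6 groups and share their pools of gilts. HP was most like ETNPPL (Pearson r = 0.990), ANKRD1 (0.989) and CHI3L1 (0.956). ETNPPL had the same shape as HP, with means of 2.19 in Yorkshire and 2.24 in Meishan gilts on GD15 and of 12.79 in Yorkshire and 13.05 in Meishan gilts on GD50. CHI3L1, which encodes a chitinase-like secreted glycoprotein, was 6.93 in Yorkshire and 8.16 in Meishan gilts on GD26, and 13.13 in Yorkshire and 12.89 in Meishan gilts on GD50. SERPINA3-2 was most like TPM4 (0.971), CKAP4 (0.964) and TMEM45A (0.956). SERPINA1 was most like LOC100519643 (0.847), NDUFS3 (0.833) and PPOX (0.827), and A2M like GLRX5 (0.777), the cell cycle inhibitor CDKN1A (0.762) and the matrix protein FN1 (0.734).

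Other genes of the same roles were taken from 6 lists, of which 64 genes passed the filter, and were tested within each breed. The counts below are read against all 9320 probe sets, of which 64.1% changed from GD15 to GD26 in Yorkshire gilts (20.6% rose and 43.6% fell) and 50% in Meishan gilts (23.3% rose and 26.7% fell). From GD26 to GD50, 13.8% changed in Yorkshire gilts (5.92% rose and 7.85% fell) and 17.5% in Meishan gilts (7.83% rose and 9.7% fell). From GD15 to GD50, 65.9% changed in Yorkshire gilts and 51.1% in Meishan gilts, and of the 64 genes 51 did in Yorkshire and 48 in Meishan gilts. The plot of the day changes by list shows each gene.

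Of the other acute phase proteins, 11 of 40 listed genes passed the filter, and from GD15 to GD26 3 rose and 6 fell in Yorkshire gilts, while 5 rose and 2 fell in Meishan gilts. The median log2 difference of the list was −0.57 in Yorkshire gilts, against −0.47 over all probe sets, and 0.28 in Meishan gilts, against −0.06 over all. After median centring, and after cyclic loess, 3 rose and 3 fell in Yorkshire gilts, with list medians of −0.18 and −0.39, so the number of falls depends on the scaling. CFB, complement factor B, rose in both steps and both breeds. Its mean log2 intensity was 4.54 on GD15, 9.47 on GD26 and 11.50 on GD50 in Yorkshire gilts, against 5.28, 8.46 and 10.39 in Meishan gilts, which is at least 28.9-fold from GD15 to GD50 in Yorkshire gilts. CFB passed the filter only through the GD26 and GD50 arrays, so this rise is given without a p-value. SAA2 (serum amyloid A) was 9.38, 8.01 and 7.17 in Yorkshire gilts and 9.03, 9.32 and 8.20 in Meishan gilts on the 3 days, and it fell from GD15 to GD26 in Yorkshire gilts by 1.38 (adjusted p = 0.0065). ITIH3, the neighbour of ITIH4 in the genome and of the same family, fell from GD26 to GD50 by 2.26 in Yorkshire gilts (adjusted p = 0.0238) and by 1.57 in Meishan gilts (adjusted p = 0.00924). C4A, complement C4, fell over the same step by 1.17 in Yorkshire gilts (adjusted p = 0.0231) and by 1.18 in Meishan gilts (adjusted p = 0.0302).

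Of the other serpins, 8 of 35 listed genes passed the filter. From GD15 to GD26, 4 rose and 3 fell in Yorkshire gilts, and 4 rose and none fell in Meishan gilts. SERPINE2, an inhibitor of thrombin and plasminogen activators, had the course of SERPINA3-2, with 4.62, 8.87 and 6.73 on the 3 days in Yorkshire gilts and 4.41, 9.17 and 7.26 in Meishan gilts. It rose at least 4.66-fold from GD15 to GD26 in Yorkshire gilts and at least 5.76-fold in Meishan gilts, and then fell by 2.13 in Yorkshire gilts (adjusted p = 0.00162) and by 1.91 in Meishan gilts (adjusted p = 0.00127). SERPINB7 was brightest on the Yorkshire GD15 arrays (a mean of 11.23 in Yorkshire gilts, against 6.80 in Meishan gilts), a log2 difference of 4.42 ± 0.39 (adjusted p = 1.15e-05), and it fell by 4.49 in Yorkshire gilts by GD26. SERPINF1 rose by 1.91 in Yorkshire gilts and by 0.59 in Meishan gilts from GD15 to GD26. SERPINI1, a serpin best known from the nervous system, was lower in Yorkshire gilts on all 3 days, with adjusted p of 0.0251, 0.0024 and 0.0307, of which the GD50 call was lost after centring, quantile normalization and loess (adjusted p = 0.0832, 0.137 and 0.199).

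Of the other protease inhibitors, 16 of 36 listed genes passed the filter, and from GD15 to GD26 10 rose and 2 fell in Yorkshire gilts, while 9 rose and 2 fell in Meishan gilts. The median log2 difference was 0.86 in Yorkshire gilts and 1.12 in Meishan gilts. SLPI, an inhibitor of neutrophil elastase, rose by a log2 difference of 2.05 in Yorkshire gilts and 2.82 in Meishan gilts, and WFDC2, a related protein, by 1.39 in Yorkshire gilts and 2.74 in Meishan gilts. UABP-2, a uterine serpin whose gene lies between SERPINA1 and SERPINA3-2, and which was picked after its values were seen, rose by 1.39 in Yorkshire gilts (adjusted p = 1.48e-05) and by 2.20 in Meishan gilts (adjusted p = 1.65e-04). TIMP3, an inhibitor of metalloproteinases, and SPINT1, an inhibitor of membrane serine proteases, separated the breeds. TIMP3 was 9.24 in Yorkshire gilts and 7.12 in Meishan gilts on GD26, a 4.35-fold difference (adjusted p = 4.13e-05), and 10.24 in Yorkshire gilts and 7.01 in Meishan gilts on GD50, a 9.34-fold one (adjusted p = 1.49e-06). SPINT1 was 10.03 in Yorkshire gilts and 6.29 in Meishan gilts on GD26, at least 10.5-fold higher in Yorkshire gilts, and all 9 Meishan arrays were dim. It passed the filter only through the Yorkshire GD26 and GD50 arrays on which it was bright, so its breed difference is given without a p-value.

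Of the proteases that these inhibitors act on, 13 of 30 listed genes passed the filter, with 8 up and 2 down from GD15 to GD26 in Yorkshire gilts and 7 up and 2 down in Meishan gilts. MMP7, a metalloproteinase of epithelia, was 5.44, 9.89 and 10.32 on the 3 days in Yorkshire gilts and 4.99, 11.13 and 11.30 in Meishan gilts, and was lower in Yorkshire gilts on GD26 by 1.24 (adjusted p = 0.00251). PRSS8 (prostasin), a membrane serine protease that SPINT1 is known to inhibit, was 9.89 in Yorkshire gilts and 7.10 in Meishan gilts on GD26, a 6.93-fold difference (adjusted p = 9.54e-07). The cathepsins CTSC and CTSH rose by 2.30 and 0.92 in Yorkshire gilts and by 2.51 and 1.80 in Meishan gilts from GD15 to GD26.

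Of the receptors and enzymes that clear hemoglobin, haptoglobin and protease complexes, 8 of 15 listed genes passed the filter, and 4 rose and 3 fell from GD15 to GD26 in each breed. HMOX1, heme oxygenase, peaked on GD26, with 5.52, 10.97 and 7.13 on the 3 days in Yorkshire gilts and 5.65, 10.06 and 6.37 in Meishan gilts. It rose at least 20.1-fold from GD15 to GD26 in Yorkshire gilts and at least 10.7-fold in Meishan gilts, and fell by 3.85 in Yorkshire gilts and by 3.69 in Meishan gilts by GD50, the day on which HP was bright. CD163, the receptor for haptoglobin bound to hemoglobin, was 5.03, 6.90 and 7.56 in Yorkshire gilts and 7.08, 7.93 and 8.16 in Meishan gilts, and was lower in Yorkshire gilts on GD15 and GD26 (adjusted p = 2.38e-04 and 0.00536). The GD26 call of CD163 was lost after centring, quantile normalization and loess (adjusted p = 0.0574, 0.0594 and 0.142), with log2 differences between −1.03 and −0.52 over the 4 scales. LRP2, an endocytic receptor, rose by 2.23 in Yorkshire gilts and by 1.96 in Meishan gilts from GD15 to GD26, while HMOX2 fell by 2.14 in Yorkshire gilts and by 1.42 in Meishan gilts.

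Of the cytokines, receptors and factors that drive acute phase genes, 11 of 34 listed genes passed the filter, with 3 up and 7 down from GD15 to GD26 in Yorkshire gilts (5 down after centring, quantile normalization or loess) and 3 up and 4 down in Meishan gilts. IL6 was dim on all GD15 arrays and above 100 on all later ones, with 2.22, 8.36 and 10.34 on the 3 days in Yorkshire gilts and 2.58, 9.28 and 9.79 in Meishan gilts. It rose at least 3.29-fold from GD15 to GD26 in Yorkshire gilts and at least 6.21-fold in Meishan gilts. Since IL6 passed the filter only through the GD26 and GD50 arrays, these rises are given without a p-value. From GD26 to GD50 IL6 rose again by 1.98 in Yorkshire gilts (limma, adjusted p = 0.00858). LIF, a cytokine of the same family, exceeded 100 in Yorkshire gilts only and was at least 3.52-fold higher in them on GD26. As LIF passed the filter only through the Yorkshire GD26 and GD50 arrays, this difference is given without a p-value. IL11RA, a cytokine receptor, fell at least 9.79-fold from GD15 to GD26 in Yorkshire gilts and 10.8-fold in Meishan gilts. FOXA2, a liver and gland transcription factor, fell by 1.80 in Yorkshire gilts (adjusted p = 0.0149), and its log2 difference in Meishan gilts was −1.22 (adjusted p = 0.067).

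**Figure D4:**
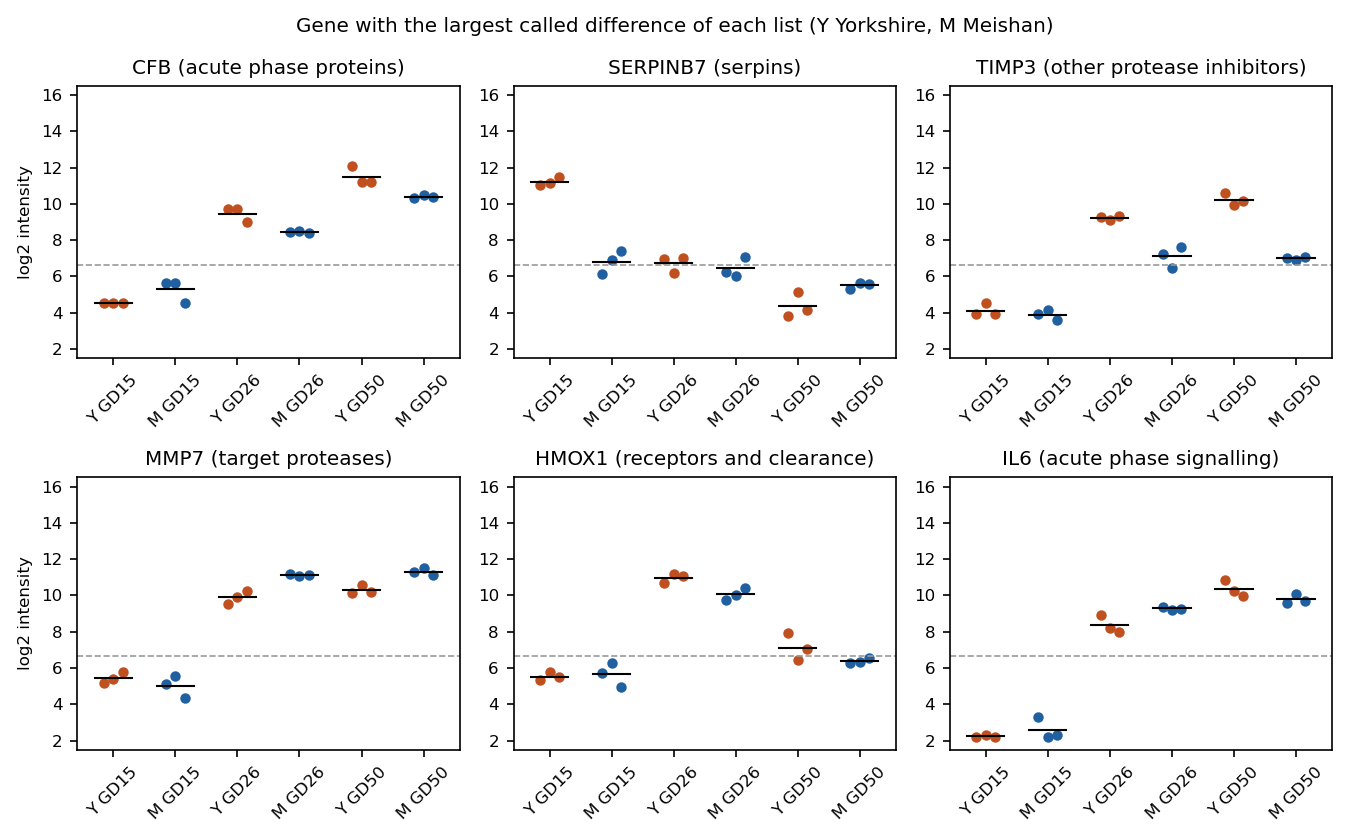
Log2 intensity on each array of the gene with the largest tested difference in each list, by breed (Y Yorkshire, M Meishan) and day, with group means as bars and an intensity of 100 as a dashed line. CFB, TIMP3, MMP7 and IL6 are dim on the GD15 arrays and brighter later, HMOX1 peaks on GD26 and SERPINB7 is bright on the Yorkshire GD15 arrays.

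**Figure D5:**
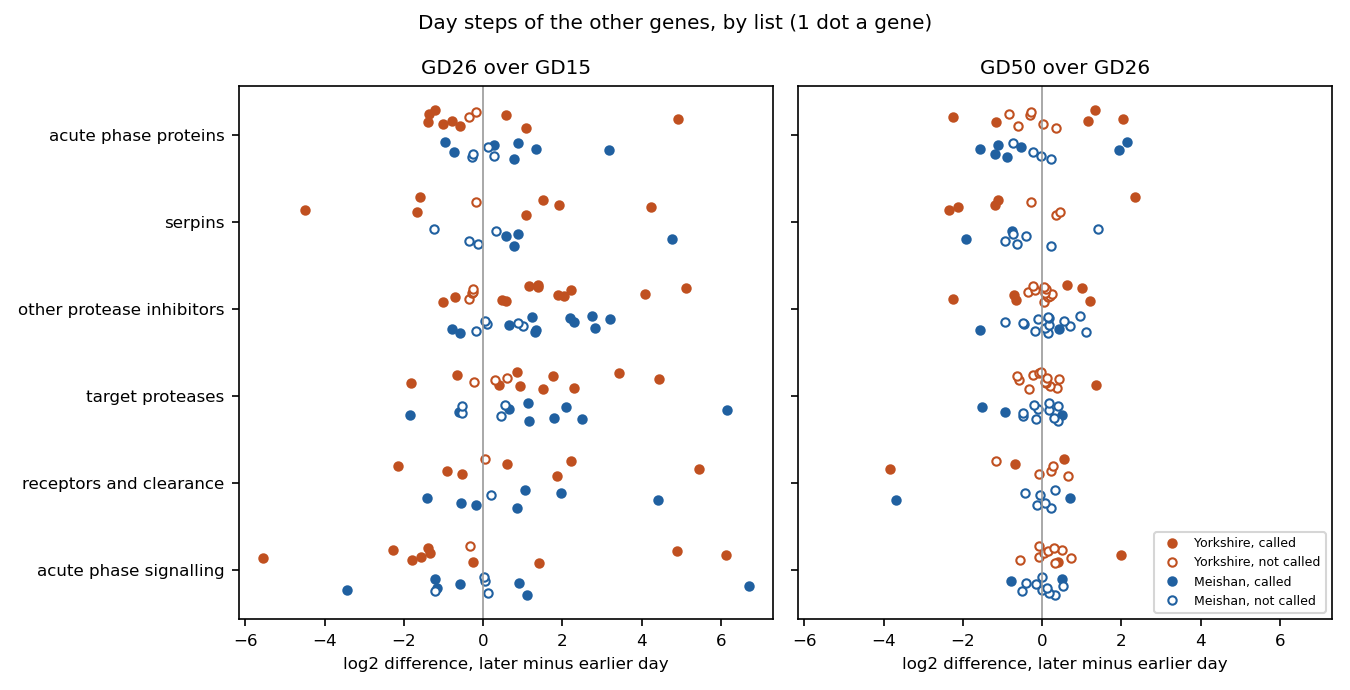
Log2 difference between days (later minus earlier) of the genes of the 6 lists past the filter, 1 dot a gene, Yorkshire above Meishan, filled where the Benjamini-Hochberg adjusted p from limma was under 0.05. In the step to GD26 the protease inhibitors and proteases lie mostly right of 0, and fewer genes of the lists pass the test in the step to GD50 (21 in Yorkshire and 18 in Meishan gilts, against 54 and 42 in the step to GD26).

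Between the breeds, 9 of the 64 genes were higher and 6 lower in Yorkshire gilts on GD15, 11 higher and 20 lower on GD26, and 11 higher and 22 lower on GD50. Among those counted higher on GD26 and GD50 are SPINT1 and LIF, which passed the filter only through Yorkshire arrays. Over all probe sets, 5.25% were higher and 5.24% lower in Yorkshire gilts on GD15, 10.9% higher and 42.6% lower on GD26, and 11.1% higher and 46.1% lower on GD50. After median centring of the arrays the split was 20 higher and 9 lower on GD26 and 20 higher and 5 lower on GD50, so its direction on these days depends on the scaling. The differences of TIMP3, SPINT1, PRSS8, LIF and IL11RA kept their sign on GD26 and GD50 under the deposited, centred, quantile and loess scales.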

How the data were processed

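Endometrial RNA of 18 arrays (2 breeds, 3 days, 3 pools a group) was analysed. The authors made the deposited log2 intensities from the scanner files with the affy and GCRMA packages, by background correction, normalization and summarization; the submitters' notes also name RMA, and versions are not given in the sources used here. Values ran from 2.18 to 16.05, and 2 arrays of a group correlated at 0.948 to 0.991 among filtered probe sets. The precision is limited by the 3 arrays of a group and by their shared 2 gilts, so differences between animals are not measured.

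limma 3.58.1 in R 4.3.3 (lmFit, eBayes) was fitted on all 24123 probe sets, in 1 fit per breed for the day steps and 1 over the 6 groups for breed and step differences. Those above 100 on 6 or more arrays were kept (9320, controls left out), with Benjamini-Hochberg adjustment over them and a threshold of 0.05. The step differences are Yorkshire minus Meishan. Folds against groups wholly under 100 were computed against 100 and are lower bounds. Gene names came from the platform annotation, with symbols brought up to date through gene identifiers (1 symbol for 10099 probe sets, several for 198, none for 13826), and gene neighbours from RefSeq (Sscrofa11.1). In the lists the brightest probe set stands for a gene.

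The members and lists were chosen with earlier results of these data known. Named are all member probe sets, up to 4 genes of each list with the largest tested difference, and the 3 genes most correlated with each member; other names are said to be chosen later. The fits were tested on simulated data. Alternatives were the filter, its order, scaling, a floor of 100, a mean-variance trend, the replicate block, the arrays in the fit, Bonferroni, a mean over each gene's probe sets, and leaving out each array. SERPINA1 and the second A2M probe set, not past the filter, have p-values adjusted over all 23999 probe sets. A further alternative, for SERPINA1 and A2M without 1 array, was chosen after seeing the data. Python 3.11.15 with matplotlib 3.10.9 drew the figures. The main fits did not use the replicate numbers to pair the arrays. Coordinates and sequences were not used here.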

Additional observations from a re-analysis of the deposited data

Results flagged for a closer look

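The change of SERPINA3-2 between GD15 and GD26 differed between Yorkshire and Meishan gilts by a tested log2 difference of 3.95 ± 1.29 (limma, adjusted p = 0.0308), 12.36 in Yorkshire gilts and 8.42 in Meishan gilts. It was kept in 18 of 30 alternatives, and its adjusted p was 0.0511 to 0.0624 without any 1 of Meishan GD15 replicate 1, the 3 Meishan GD26 arrays, Yorkshire GD15 replicates 2 and 3 and Yorkshire GD26 replicates 2 and 3. The change of the brightest A2M probe set between GD15 and GD50 differed by −1.06 ± 0.37 (adjusted p = 0.0363), −0.41 in Yorkshire gilts and 0.65 in Meishan gilts, also kept in 18 of 30 alternatives. Those 18 include each fit without 1 GD26 array, and GD26 arrays are not part of that change.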

How the results depend on the processing

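No called difference of a member changed sign in the 30 alternatives, but differences that did not pass the test did. After median centring the breed difference of SERPINA3-2 on GD26 was 0.33, those of the brightest A2M probe set on GD26 and GD50 were 0.30 and 0.04, and its GD50 over GD15 change in Yorkshire gilts, −0.41 as reported, was 0.05 (0.81 as a mean over the 3 probe sets). Loess gave 0.26 for SERPINA3-2 and 0.19 for A2M on GD26, and the floor −0.09 for the SERPINA3-2 step GD15 to GD50, 3.07 as reported. The GD26 value of SERPINA3-2 was 0.05 without Yorkshire GD26 replicate 1 and 0.08 without Meishan GD26 replicate 2, and that of A2M was 0.18 without Yorkshire GD26 replicate 2 and 0.13 without Meishan GD26 replicate 1. The member calls below are those of 3 tested probe sets (limma), for the breed difference on GD15, GD26 and GD50 (1, 0 and 0 as reported) and the step differences GD15 to GD26, GD26 to GD50 and GD15 to GD50 (1, 0 and 1). Filtering first and fitting afterwards gave 3 calls for the step GD15 to GD50. With no filter, 1 was called on GD26, 2 on GD50 and 0 for the step GD15 to GD50. With 3 arrays above 100, which SERPINA1 and the second A2M probe set pass only through the breed in which they are bright, 1 was called on GD26, 2 on GD50, 2 for GD15 to GD26 and 2 for GD15 to GD50. Median centring and quantile normalization each gave 1 on GD50 and 2 for GD15 to GD50, and cyclic loess 1 on GD50. A floor of 100 gave 0 on GD15, 1 on GD50, 0 for GD15 to GD26, 1 for GD26 to GD50 and 2 for GD15 to GD50. A fit of each day's arrays, or of both breeds, gave 0 on GD15, 1 on GD50, 0 for GD15 to GD26 and 2 for GD15 to GD50, and called 9 list genes on GD15 in place of 15. Bonferroni called 0 members in each comparison. Without 1 array, 0 to 1 were called on GD15, 0 on GD26, 0 to 1 on GD50, 0 to 2 for GD15 to GD26, 0 for GD26 to GD50 and 0 to 2 for GD15 to GD50. The cause of these changes was not tested.

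The day change of SERPINA3-2 from GD15 to GD26 in Yorkshire gilts was 12.76 after median centring and 8.22 with a floor of 100. That of HP from GD26 to GD50 in Yorkshire gilts was 11.22 after quantile normalization and 7.33 with the floor, and in Meishan gilts 6.33 with the floor, which replaces the dim values. Of the 64 list genes, Bonferroni called 16, 1 and 14 in Yorkshire gilts for GD26 over GD15, GD50 over GD26 and GD50 over GD15, and 8, 0 and 9 in Meishan gilts, and 3, 6 and 6 between the breeds on GD15, GD26 and GD50. Without 1 array these calls were 47 to 54, 14 to 21 and 46 to 52 in Yorkshire gilts, 33 to 42, 13 to 26 and 41 to 48 in Meishan gilts, and 11 to 18, 23 to 34 and 26 to 35 between the breeds. The mean over the 3 A2M probe sets, of which the third was constant at the floor, gave a GD26 over GD15 difference of 1.59 in Yorkshire gilts and 0.57 in Meishan gilts.

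Deviations of same-numbered arrays of a breed correlated at −0.14 to 0.33 (mean 0.06, 18 pairs). Those of different-numbered arrays correlated at −0.33 to 0.22 (mean −0.03, 36 pairs). Whether a number stands for a matching site is not given by the labels, and the main fits did not pair the arrays. With the replicate number as a block the members called stayed at 1, 0, 0, 1, 0 and 1, and the block called 51, 15 and 49 list genes in Yorkshire gilts, 43, 16 and 46 in Meishan gilts, and 13, 27 and 33 between the breeds. Values under 100 limit SERPINA1, ITIH4 and 2 A2M probe sets most.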

Other observations

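APOA2, a plasma apolipoprotein, was bright on all 3 Meishan GD26 arrays (8.59 to 9.18) and stood at 2.29 or less on the other 15, so that, unlike AFP, ORM1 and SERPINA1, it did not separate Meishan GD26 replicate 1 from the other arrays of its group.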
